A study of Homo sapiens with 2 samples.

Results

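The aldehyde dehydrogenases described here are ALDH1A1, ALDH1A2, ALDH1A3, ALDH1B1, ALDH1L1, ALDH2, ALDH3A1, ALDH3A2, ALDH3B1 and ALDH7A1. They were taken by gene name from the array files, with every probe that carries one of these names, and make up 10 of the 30238 gene names and 16 of the 41000 probes on the array. Of the 10 genes, 4 had 1 probe and 6 had 2. Enzymes of this superfamily oxidize aldehydes to carboxylic acids with NAD or NADP as the acceptor, and so clear aldehydes that arise from alcohol, amino acids, lipids and some drugs. The ALDH1A enzymes convert retinaldehyde to retinoic acid, the ligand of the retinoic acid receptors, and aldehyde dehydrogenase activity is widely used to mark stem-like cells in ovarian and other carcinomas.

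The study compared drug resistant derivatives of A2780, an established human ovarian carcinoma cell line, with A2780 cells kept in culture alongside them without drug (A2780CC, co-cultured control). A separate control culture was kept for each resistant line, so the A2780CC RNA on the A2780CBN arrays and on the A2780CBNDXL arrays comes from line-matched cultures under one name. A2780CBN was selected in rising doses of carboplatin, a platinum compound that crosslinks DNA, up to 22.2 µM. A2780CBNDXL was selected in carboplatin together with docetaxel, a taxane that stabilizes microtubules. The labels give 8.02 µM of the combination as its selection dose, without the share of each drug. In the study's text this value is instead the carboplatin part of the inhibitory concentration measured for the line. The text gives a lower dose for the end of selection. Doses were raised step by step so as not to select clones, each resistant line is 1 sample, and A2780CC carries no drug selection. RNA of 3 isolations was pooled per line and hybridized to 4 two-colour arrays against RNA of A2780CC, on 2 slides that each held both lines, with forward and reverse labelling on each slide. The arrays are technical replicates, so every SD below covers labelling and hybridization but not culture, no test between samples was possible, and no p-values are given.

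Per array and dye, 59.8% to 67.5% of gene spots exceeded background clearly, and the correlation between log2 ratios of arrays of the same line was 0.58 to 0.90. The first array of A2780CBNDXL stood apart, with a coefficient of variation of its spike-in controls of 19.5% (green) and 20.0% (red) against 3.56% to 4.87% on the others, and values without it are given where they matter. Epithelial markers were checked first. KRT8, KRT18 and PAX8 were well above background in both channels on every array, whereas KRT7, CDH1, WT1 and MUC16 were not above it on any. Some epithelial markers also moved with the lines, as EPCAM was called higher in both by the 2-fold rule given below (log2 ratios of 2.07 and 1.67) and KRT18 in A2780CBN alone (1.05, beside 0.51). Markers of other cell types moved with the lines as well. The summed processed signal of the 3 fibroblast markers DCN, COL1A1 and LUM was 618 to 770 in A2780CBN against 236 to 317 in its control, and 6712 to 8146 in A2780CBNDXL against 639 to 1028. All 3 were above background in both lines and in the control beside A2780CBNDXL, and LUM was below it in the control beside A2780CBN. PTPRC and PECAM1, which mark leukocytes and endothelium, were below background in every channel, while CD3E was above it in every channel with log2 ratios of 0.10 and −0.02. The part of these markers in the results below was not tested.

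A log2 ratio below is the resistant line over A2780CC, where 1 is a 2-fold difference, and is the mean over both labelling directions. A gene was called changed when this mean was at least 1 in size with one sign on all 4 arrays and 1 channel was well above background on each of them. Signals are the processed intensities of the scanner software, which have no unit and are compared only within a probe. In A2780CBN 7 of the 10 aldehyde dehydrogenases were bright enough to be measured and 3 were called, with ALDH1A3 and ALDH3B1 higher and ALDH1A1 lower. These are 42.9% of the genes measured, where the same rule called 12.2% of the 18600 genes measured on the array, 7.77% as higher and 4.43% as lower. In A2780CBNDXL 7 were measured and 3 were called, with ALDH1A3 higher and ALDH1A1 and ALDH2 lower, against 16.5% of 17902 genes, 7.52% as higher and 8.99% as lower. The median log2 ratio of the 7 genes was 0.15 in A2780CBN and −0.05 in A2780CBNDXL, beside −0.06 and 0.04 over all genes. In both lines ALDH1A1 and ALDH1A3 met the background filter only through the channel in which they were brighter. The genes were also chosen with earlier results of these data known. With so few genes the shares describe this family and no more, and they are not a test of enrichment.

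**Figure D1:**
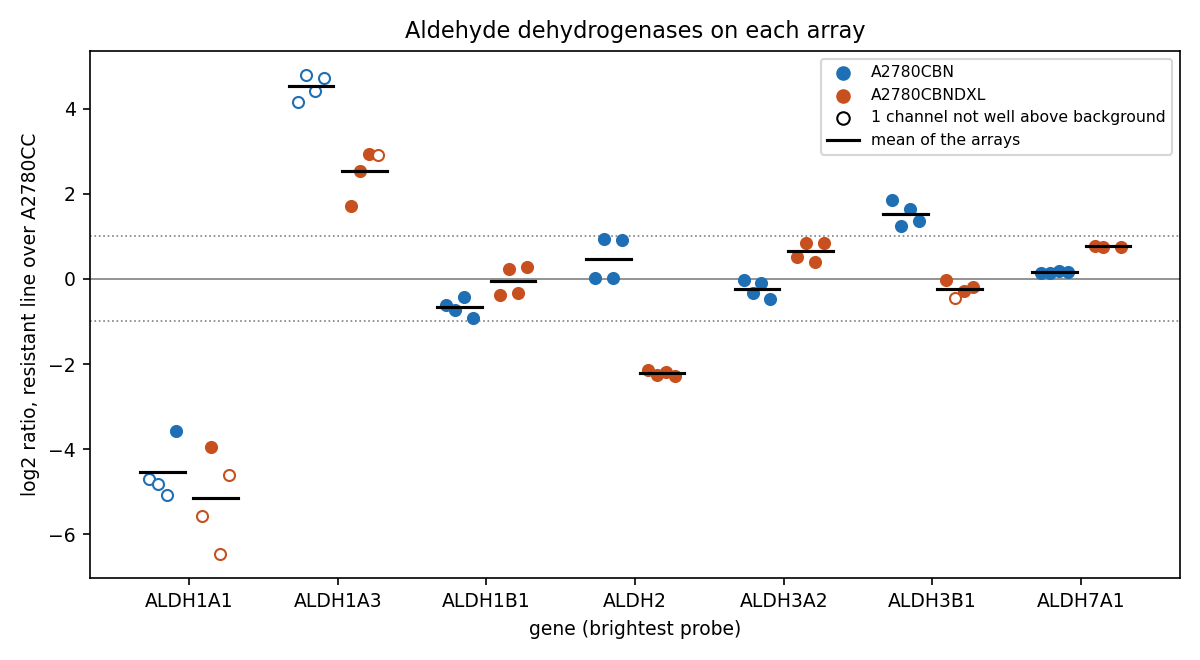
Log2 ratio of each resistant line over A2780CC (y axis) for the 7 aldehyde dehydrogenases measured in both lines (x axis), with 1 point per array, open where 1 channel was not well above background, and a bar at the mean. ALDH1A1 lies far below 0 and ALDH1A3 far above it in both lines, whereas ALDH2 is low only on the A2780CBNDXL arrays and ALDH3B1 passes the dotted 2-fold line only on the A2780CBN arrays.

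Among the retinaldehyde dehydrogenases, ALDH1A1 and ALDH1A3 moved in opposite directions, and did so in both lines. ALDH1A1 is the cytosolic enzyme most often tied to stem-like cells, and also oxidizes an intermediate of cyclophosphamide. Its only probe lies without an intron at chr9:74705956-74706015 (NCBI36, minus strand) and is printed because the whole ALDH1A1 result rests on it. The longest run of bases that a probe of one of the 10 genes shared with a probe of another was 9.

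ALDH1A1 probe: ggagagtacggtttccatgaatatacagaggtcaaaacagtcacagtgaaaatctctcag

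In A2780CC the ALDH1A1 signal on the A2780CBN arrays was 367, 447, 282 and 402. In A2780CBN it was 14.2, 15.9, 8.42 and 33.9, and only the last of these was well above background. The groups did not overlap, and the log2 ratio was −4.54 ± 0.66 (SD, n = 4 arrays). In the second line the picture was similar. A2780CC gave 478, 463, 408 and 342, and A2780CBNDXL gave 10.1, 30.3, 4.65 and 14.0, of which only 30.3 was well above background. The log2 ratio was −5.14 ± 1.1 (SD, n = 4 arrays) and ranged from −6.46 to −3.94, and without the first array it was −5.37. With normexp correction, its offset and loess normalization together the log2 ratio was −1.11 in A2780CBN and −1.39 in A2780CBNDXL, still past the 2-fold limit. With background-subtracted signals centred on the median it was −4.38 and −5.55.

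ALDH1A3, the retinaldehyde dehydrogenase of developing eye and nasal tissue, was barely detected in control cells and present in both resistant lines. Its brighter probe lies at chr15:99274026-99274085 (NCBI36, plus strand). In A2780CBN the signal was 208, 182, 155 and 169, and in the A2780CC channel of the same arrays it was 11.6, 6.57, 7.31 and 6.46, not well above background on any array. The measured log2 ratio was 4.52 ± 0.29 (SD, n = 4 arrays), and set against the lowest signal that counts as above background ALDH1A3 was at least 7.91-fold higher. In A2780CBNDXL the signal was 204, 180, 173 and 155, nearly the same as in A2780CBN. Its control gave 62.7, 31.1, 22.4 and 20.5, above background on 3 of the 4 arrays. The log2 ratio was 2.52 ± 0.58 (SD, n = 4 arrays), and 2.83 without the first array, on which the control was brightest. The second ALDH1A3 probe, at chr15:99239020-99239079, was below background in every channel and gave no measurement. The ALDH1A3 calls did not hold under normexp correction with loess, where the log2 ratio was 0.75 in A2780CBN and 0.63 in A2780CBNDXL.

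**Figure D2:**
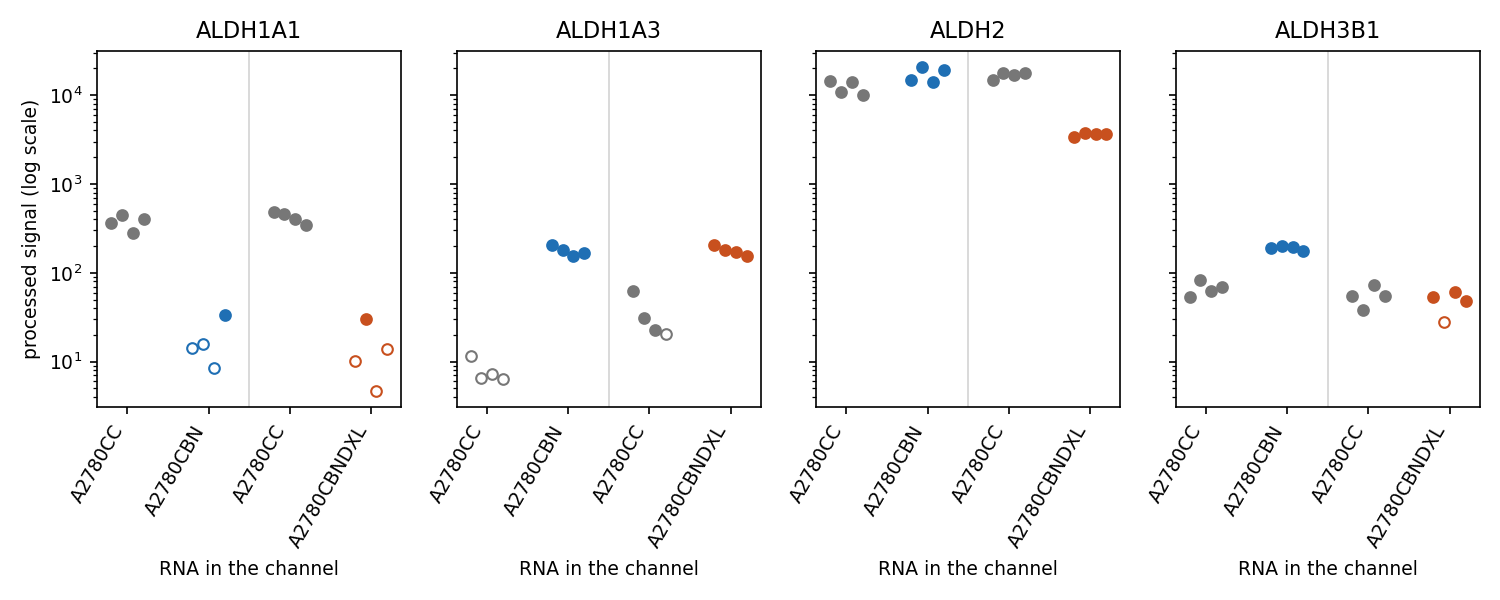
Processed signal (log scale) of ALDH1A1, ALDH1A3, ALDH2 and ALDH3B1 in each channel, with 1 point per array, open where not well above background; the A2780CC points to the left of a line's points are from the same arrays. ALDH1A1 drops to near background in both lines, ALDH1A3 is about equally bright in both lines over controls at or near background, ALDH2 is dimmer in A2780CBNDXL alone and ALDH3B1 is brighter in A2780CBN alone.

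The promoters of these 2 genes are shown because the genes moved in opposite directions and their promoters differ in base composition. A RefSeq table for GRCh38.p14, with 250 bases before and 50 after each gene start, held 12 promoters for 8 of the 10 genes, and ALDH2 and ALDH3A1 were not among them. The ALDH1A1 promoter, chr9:72953004-72953303 on the minus strand, had 7 CG pairs and 40.3% G and C. The ALDH1A3 promoter, chr15:100879581-100879880 on the plus strand, had 46 CG pairs and 81.7% G and C. Over all 35114 promoters the median was 14 CG pairs, 36.8% had fewer than ALDH1A1 and 97.1% had fewer than ALDH1A3. Capitals mark CCAAT, the motif of the factor NF-Y, which was searched on both strands together with TATAAA and TGACNNNGC, the core of the antioxidant response element.

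ALDH1A1 promoter: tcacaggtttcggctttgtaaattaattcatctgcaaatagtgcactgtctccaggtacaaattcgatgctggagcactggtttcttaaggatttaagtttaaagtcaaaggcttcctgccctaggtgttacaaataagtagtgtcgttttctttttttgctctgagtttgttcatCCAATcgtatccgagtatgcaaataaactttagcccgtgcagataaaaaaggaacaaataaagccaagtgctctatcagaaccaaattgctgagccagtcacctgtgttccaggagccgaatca

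ALDH1A3 promoter: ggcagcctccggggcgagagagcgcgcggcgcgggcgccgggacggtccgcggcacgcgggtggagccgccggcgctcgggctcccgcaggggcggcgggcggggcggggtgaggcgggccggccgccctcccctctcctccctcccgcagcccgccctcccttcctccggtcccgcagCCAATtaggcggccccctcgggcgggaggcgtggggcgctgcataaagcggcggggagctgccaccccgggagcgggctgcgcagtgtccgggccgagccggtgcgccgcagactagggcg

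Both held 1 CCAAT on the gene's strand, starting 74 bases before the start of ALDH1A1 and 71 bases before that of ALDH1A3, and neither held TATAAA or TGACNNNGC. CCAAT was in 34.6% of all promoters of this length, TATAAA in 11.5% and TGACNNNGC in 13.3%. Of the 12 promoters of the 8 genes, 6 held a CCAAT, each of a different gene, and so small a count does not set the family apart. No promoter of the 8 genes held TGACNNNGC, and a TATAAA was found only in 1 promoter of ALDH1L1. These matches describe the letters and say nothing of binding in these cells.

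ALDH1A2, the main retinaldehyde dehydrogenase of the embryo, was at or near background. Its probe with the higher mean signal, at chr15:56041514-56041573, was above background only on the first A2780CBN array, in both channels. The other, at chr15:56033824-56033883, was below background throughout in A2780CBN and in both controls. In A2780CBNDXL it gave 35.1, 42.0, 29.9 and 17.7, above background on 3 of 4 arrays, against 5.56, 4.20, 4.74 and 5.08 in the control. The log2 ratio of that probe was 2.61 ± 0.62 (SD, n = 4 arrays), which did not enter the counts because the gene was represented by its brighter probe and because the fourth array missed the filter.

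The mitochondrial enzymes behaved differently from each other. ALDH2, which oxidizes acetaldehyde and the lipid peroxidation product 4-hydroxynonenal, fell in A2780CBNDXL and was not called in A2780CBN. Its brighter probe, at chr12:110732074-110732133, gave 3390, 3728, 3690 and 3665 in A2780CBNDXL and 14869, 17843, 16745 and 17661 in the control. The values of line and control lay far apart, and the log2 ratio was −2.21 ± 0.06 (SD, n = 4 arrays), a 4.63-fold difference. The second probe, at chr12:110731831-110731890, gave −1.86 ± 0.20 (SD, n = 4 arrays) and was called as well. In A2780CBN the brighter probe depended on the labelling. A2780CBN gave 14650, 20760, 14116 and 19151, and the control 14373, 10782, 13928 and 10093, so that line and control hardly differed on the forward arrays (mean log2 ratio 0.02) and differed by 0.93 on the reverse arrays. The second probe showed no such split, at 0.44 ± 0.06 (SD, n = 4 arrays).

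ALDH1B1, the mitochondrial enzyme closest to ALDH2 in sequence, was not called in either line. In A2780CBN both of its probes were lower on all 4 arrays, with log2 ratios of −0.67 ± 0.20 and −0.39 ± 0.11 (SD, n = 4 arrays). In A2780CBNDXL they were −0.05 ± 0.36 and 0.17 ± 0.19 (SD, n = 4 arrays), and the brighter probe was lower on the forward and higher on the reverse arrays. ALDH1L1, the cytosolic formyltetrahydrofolate dehydrogenase of folate metabolism, was below background in both channels on all A2780CBN arrays. In A2780CBNDXL its brighter probe gave 49.0, 42.1, 27.0 and 26.2, above background on the first 2 arrays only.

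Of the enzymes that act on fatty and lipid-derived aldehydes, ALDH3B1 moved in one line. It oxidizes medium and long chain aldehydes from lipid peroxidation. Its only probe, at chr11:67552241-67552300, gave 192, 199, 196 and 175 in A2780CBN and 52.9, 83.6, 62.7 and 68.5 in the control, without overlap. The log2 ratio was 1.53 ± 0.28 (SD, n = 4 arrays), a 2.88-fold difference, but 0.48 under normexp correction with loess, which ended the call. In A2780CBNDXL the signal was 54.1, 28.2, 60.4 and 48.2, and in its control 54.8, 38.6, 73.2 and 54.8. Here line and control overlapped and the log2 ratio was −0.23 ± 0.18 (SD, n = 4 arrays).

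ALDH3A2, the microsomal fatty aldehyde dehydrogenase whose loss causes Sjögren-Larsson syndrome, had log2 ratios of −0.23 ± 0.20 in A2780CBN and 0.66 ± 0.23 in A2780CBNDXL (SD, n = 4 arrays), neither of which passed the limit. ALDH3A1, an abundant protein of the cornea, was below background on every array in both channels. ALDH7A1, or antiquitin, which acts in lysine breakdown, had its brighter probe across an intron of chr5:125908599-125909962. The A2780CBN signal of 15640 to 16356 lay above the control signal of 14217 to 14733 on every array, a log2 ratio of only 0.15 ± 0.02 (SD, n = 4 arrays). In A2780CBNDXL the log2 ratio was 0.77 ± 0.02 (SD, n = 3 arrays, since the software marked the spot of the third array as an outlier). The second ALDH7A1 probe gave −0.29 ± 0.09 and 0.91 ± 0.19 (SD, n = 4 arrays), so both probes were higher in A2780CBNDXL and their signs differed in A2780CBN.

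The 2 resistant lines were then set against each other, with the line channels scaled between arrays and paired by slide and labelling direction. Of the 10 genes, 6 were measured and 2 passed the 2-fold rule, ALDH2 and ALDH3B1, both lower in A2780CBNDXL. That is 33.3% of the genes measured, beside 15.8% of 18400 genes in all, 6.43% as higher and 9.39% as lower in A2780CBNDXL. ALDH3B1 met the background filter only through A2780CBN, and so small a count does not set the family apart. ALDH2 was lower by a log2 difference of −2.36 ± 0.52 (SD, n = 4 array pairs) with the brighter probe and −2.21 ± 0.13 with the second. ALDH3B1 was lower by −2.08 ± 0.57 (SD, n = 4 array pairs), and every pair lay between −2.91 and −1.63. For ALDH7A1 the brighter probe was 0.84 ± 0.15 higher in A2780CBNDXL (SD, n = 3 array pairs) and missed the limit, whereas the second, at 1.18 ± 0.14 (SD, n = 4 array pairs), passed it.

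For ALDH1A3 the line channels differed by −0.04 ± 0.19 (SD, n = 4 array pairs), although its ratios to the controls were unequal. The control beside A2780CBN was below background on all arrays, so the size of the difference between the controls is not known. Set against the lowest signal that counts as above background, the control beside A2780CBNDXL was 1.34-fold higher on the mean of its arrays. That mean includes the fourth array, on which this control was itself not above background. It also includes the first, on which this control was brightest (62.7), and is not given without it. The value is therefore no firm lower bound. A 2-fold difference between the controls was not shown. Set against the matched control of the other line, the log2 ratio in A2780CBN was 2.57, and ALDH1A3 in A2780CBNDXL was at least 7.68-fold higher. For ALDH2 the controls differed by 0.33 ± 0.15 and for ALDH3B1 by −0.32 ± 0.67 (SD, n = 4 array pairs), in both cases far less than the lines did. For ALDH3A2 the controls differed by −0.56 ± 0.54 and the lines by 0.33 ± 0.45, and the spread was as large as the difference. Without the pair that holds the first A2780CBNDXL array these values were −0.30 and 0.58. ALDH1A1 could not be compared between lines, since it was near background in both.

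**Figure D3:**
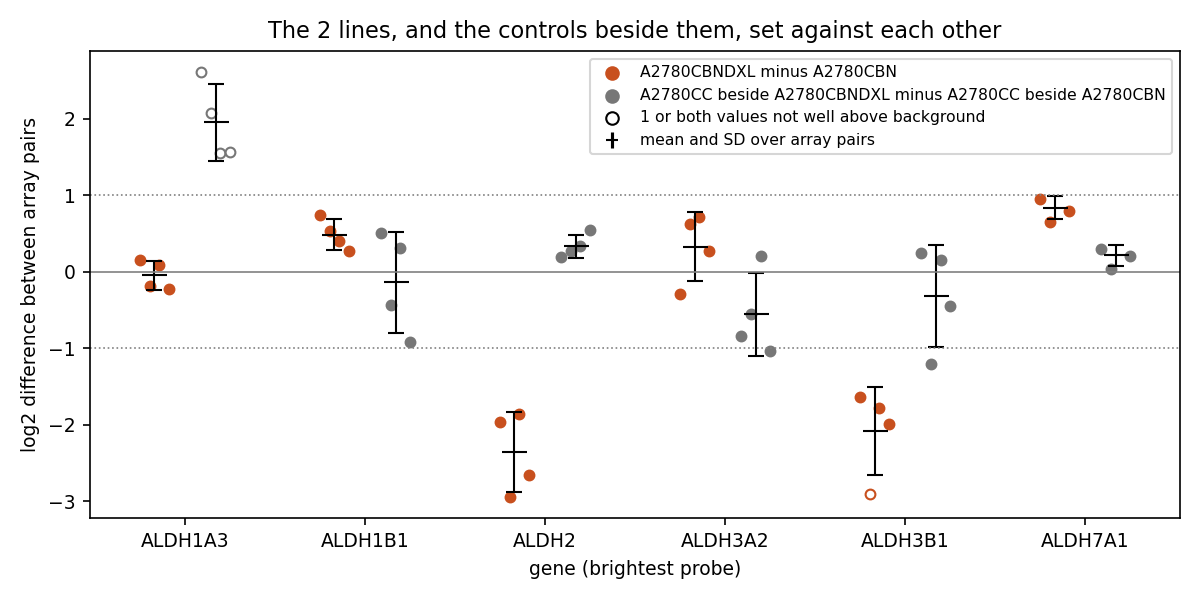
Log2 difference between the 2 lines (orange) and between the A2780CC channels beside them (grey) for the 6 genes measured in the line comparison, with 1 point per array pair, open where 1 or both values were not well above background, and the mean with SD in black. ALDH2 and ALDH3B1 differ between the lines by more than between the controls, and the 4 control points of ALDH1A3 are all open, so that their height is not a measured difference.

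Other genes of the superfamily were read from the same arrays. Of 9 further aldehyde dehydrogenase genes, 8 were measured in A2780CBN and none was called, with log2 ratios from −0.66 to 0.69, where the rule called 12.2% of all genes. In A2780CBNDXL 7 were measured and 2 were called, both lower, where it called 16.5% of all genes and 8.99% as lower, so that nothing particular to these genes can be read from so small a count. ALDH1L2, the mitochondrial counterpart of ALDH1L1, had a log2 ratio of −1.83 ± 0.11 (SD, n = 3 arrays). ALDH18A1, which makes the proline precursor pyrroline-5-carboxylate, had −1.15 ± 0.11 (SD, n = 4 arrays). The other 5 lay between −0.51 and 0.61.

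The genes that supply, carry and sense retinoids were listed because ALDH1A1 and ALDH1A3 share that pathway. Of 26 such genes read from the array, 17 were measured in A2780CBN, where 1 was called higher and 1 lower, and 18 in A2780CBNDXL, where 1 was called higher and 2 lower. These shares are near the 12.2% and 16.5% called over all genes, so the list as a whole did not stand apart, and the called genes are given as single values. STRA6, the retinol uptake receptor, was called in A2780CBNDXL with a log2 ratio of 1.98 ± 0.35, while A2780CBN gave 1.00 ± 0.16 (SD, n = 4 arrays), just short of the limit. RDH10, which oxidizes retinol to retinaldehyde, was lower in A2780CBN at −2.05 ± 0.18 and was 0.87 ± 0.12 in A2780CBNDXL. CRABP2, which carries retinoic acid to its receptors, was −1.61 ± 0.20 in A2780CBNDXL and −0.51 ± 0.31 in A2780CBN, the latter over 3 arrays. BCMO1, which cleaves beta-carotene, was at least 3.42-fold higher in A2780CBN, since its control was below background, and was not measured in A2780CBNDXL. RDH12, a retinal reductase of photoreceptors, was called lower in A2780CBNDXL, but its line channel was below background there and the bound is at least 1.32-fold lower. The median log2 ratio of the list was −0.17 in A2780CBN and 0.05 in A2780CBNDXL, beside −0.06 and 0.04 over all genes. CYP26A1, which degrades retinoic acid, was not measured in A2780CBN and had −0.78 ± 0.08 in A2780CBNDXL. RARB, a receptor gene that retinoic acid induces, was not measured in either line.

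**Figure D4:**
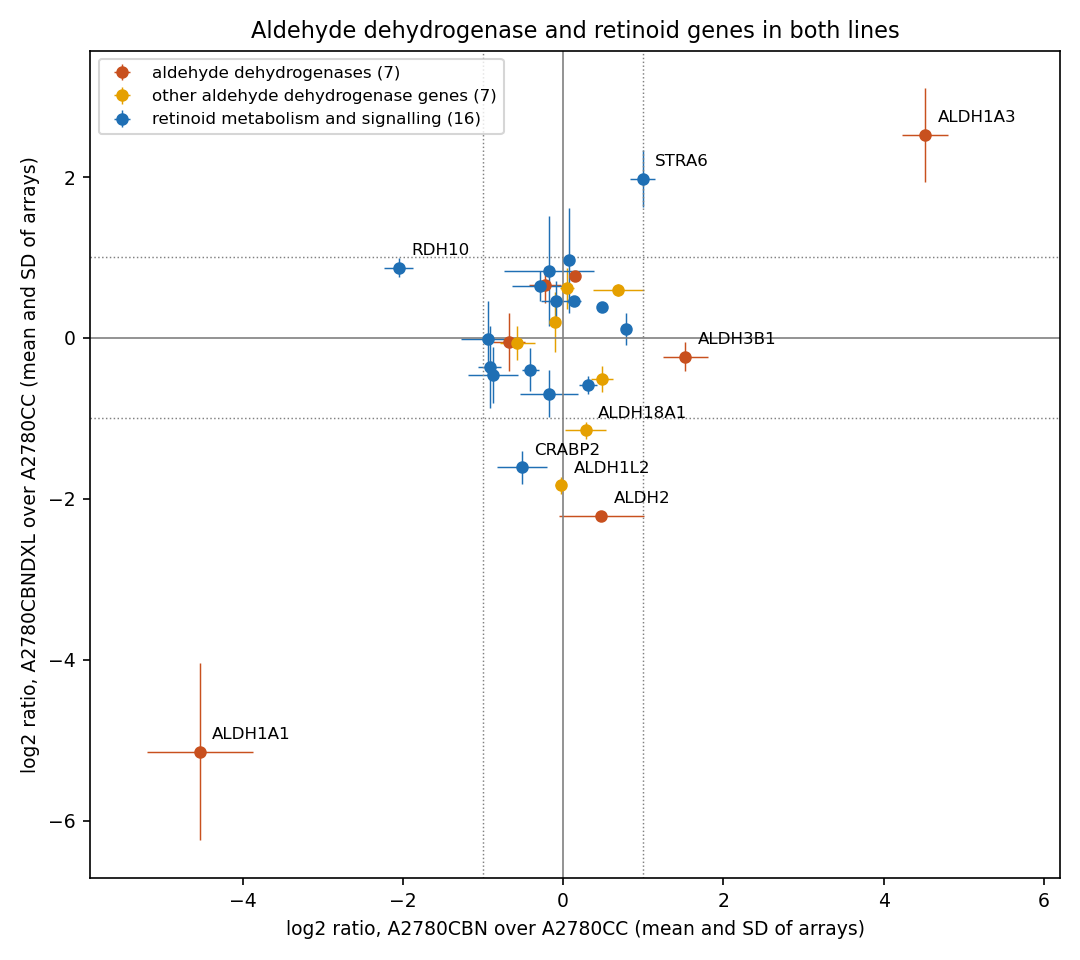
Log2 ratio in A2780CBN (x axis) against that in A2780CBNDXL (y axis), mean and SD of arrays, for the 7 aldehyde dehydrogenases described here, 7 others of the superfamily and 16 retinoid genes measured in both lines; genes called in either line are named and dotted lines mark 2-fold. Most genes lie within the 2-fold lines, ALDH1A3 is high in both lines and ALDH1A1 is low in both. RDH10 and ALDH3B1 pass the limit in A2780CBN alone, and ALDH2, ALDH1L2, ALDH18A1, STRA6 and CRABP2 in A2780CBNDXL alone.

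Alcohol dehydrogenases, which feed aldehydes to these enzymes, were mostly dim. Of 7 on the array, 5 were not measured in either line. ADH5, which also acts on formaldehyde bound to glutathione, had log2 ratios of −0.09 and −0.15. ADHFE1, a mitochondrial hydroxyacid-oxoacid transhydrogenase, was called higher in both, at 1.12 ± 0.40 in A2780CBN and 2.02 ± 0.20 in A2780CBNDXL (SD, n = 4 arrays).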

How the data were processed

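The authors pooled RNA of 3 isolations per line, labelled it in both directions and scanned 4 arrays per line. The deposited files hold the processed intensity of each channel from Agilent Feature Extraction (slide 1 with version 10.7.1.1, slide 2 with 10.7.3.1), which the authors' software background-subtracted and normalized for dye within the array, for a design with probe coordinates on NCBI36. Signals near background were raised to a surrogate value there, so folds of dim probes depend on it. The sign of each ratio rests on the labels of the forward arrays (control Cy3, line Cy5). The dye entries of the reverse arrays conflict with their name and the methods, so the sign of these arrays was flipped following their name. The correlation between both directions within a line was then 0.58 to 0.74. The docetaxel resistant line was not analysed here.

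Outlier spots, 165 to 1006 per array, were left out, with at most 1 array missing per value. No spot was saturated. The mean log2 ratio weights both labelling directions equally. A gene was represented by its brightest probe over all arrays. Bounds, comparisons between lines and the exchange of controls used channels scaled by the Aquantile method of limma 3.58.1 (R 4.3.3). With 1 sample per line a test between samples could not be made, and the number of arrays limits the precision. The 3-way ANOVA and limma (dye and slide as terms) were alternatives that measure array error only. The 2-fold rule, the ANOVA and limma were tried on simulated arrays of brighter probes, with changes well past the limit. Probes as dim as those of ALDH1A1, ALDH1A3 and ALDH3B1 were not among them, and the other alternatives were not simulated. Further alternatives were normexp with an offset of 50 and loess, background-subtracted signals, each array, slide or direction left out, other filters and fold limits of 1.5 and 3, and the mean over probes. All members, and each gene called in the superfamily, retinoid and alcohol dehydrogenase lists, were named by rule, and CYP26A1, RARB and ADH5 were added for context after their values were seen. Of the retinoid list, 1 gene is not reported here and was left out of its counts. The members and lists were chosen with earlier results of these data known.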

Additional observations from a re-analysis of the deposited data

Results flagged for a closer look

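For the brightest probe of 3 genes all A2780CBN arrays lay on one side of the control and all A2780CBNDXL arrays on the other. In each case the difference was not tested, since each line is 1 sample. The rule took the sign alone, so a ratio as small as −0.02 (ALDH3B1 in A2780CBNDXL) counted. No share over all genes is given, so nothing particular to this family can be read from the count. The second ALDH7A1 probe changed sign in the same way, but its brighter probe did not. The log2 ratio of ALDH2 was 0.48 for A2780CBN but −2.21 for A2780CBNDXL. ALDH3B1 had 1.53 in A2780CBN and −0.23 in A2780CBNDXL. ALDH3A2 had −0.23 in A2780CBN and 0.66 in A2780CBNDXL, and each of these ratios is to the line's own matched control culture. Set against the control culture matched to the other line, it had 0.33 and 0.10, so its opposite signs were seen only with the matched controls.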

How the results depend on the processing

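The counts of called aldehyde dehydrogenases, 3 in A2780CBN, 3 in A2780CBNDXL and 2 between the lines, were the same genes with each array or pair left out in turn (3 to 3, 3 to 3 and 2 to 2), and in the first 2 comparisons also with each slide or labelling direction alone, with the other line's control, with the 3-way ANOVA and with limma. Normexp correction with loess left 1 call in A2780CBN (ALDH1A1) and 1 between the lines (ALDH2), and in A2780CBNDXL it lost ALDH1A3; calls over all genes fell as well, to 3.32%, 6.38% and 6.89% in that order. Asking for both channels above background left 1 call in A2780CBN (ALDH3B1), 1 in A2780CBNDXL (ALDH2) and 1 between the lines (ALDH2). Calls over all genes fell as well, to 8.82%, 12.3% and 11.2% in that order. This filter removes by construction the genes near background in 1 channel. A 1.5-fold limit gave 5 calls in A2780CBNDXL, adding ALDH3A2 and ALDH7A1 (32.8% of all genes). It gave 4 in A2780CBN, adding ALDH1B1 (26.6%), and 3 between the lines, adding ALDH7A1 (30.1%). A 3-fold limit ended the ALDH3B1 call in A2780CBN, where 6.04% of all genes were then called. The cause of the difference under normexp was not tested. Averaging the probes moved ALDH1A3 to 2.29 in A2780CBN and 1.32 in A2780CBNDXL, since its second probe was below background. Over the measured members, 144 of the recomputed log2 ratios moved by less than the spread between arrays, 22 moved by more and none of a called gene changed sign. Leaving out an array, or taking 1 slide or labelling direction alone, cannot move a mean past that spread, whatever the data. Averaging probes cannot move a gene with 1 probe. Most of the 144 were thus fixed in advance and are no measure of stability. No paired analysis was possible because each line is 1 sample. Signal over background, with a median of 2.28 to 3.52 per channel, limits the dim genes ALDH1A1, ALDH1A2, ALDH1A3, ALDH1L1, ALDH3A1 and ALDH3B1.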
